A study of Danio rerio with 9 samples.

Results

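The hox genes of zebrafish larvae were described at 96 h after fertilization, with and without exposure to perfluorobutane sulfonate (PFBS), a short-chain perfluorinated sulfonate. Members were the table rows that name 1 gene of a hox cluster, chosen by gene name and not by any measured value. They came to 44 genes of 12126 gene names, 38 of them with a row of their own in each of the 3 deposited tables and 6 more in the table of 32 µM against 16 µM alone. Polyadenylated RNA of whole AB-strain larvae was sequenced with strand-specific libraries in 3 groups of 3 samples, each sample a pool of 15 animals from 1 of 3 experiments: a solvent control with 0.01% DMSO, 16 µM PFBS and 32 µM PFBS. All animals were freed from the chorion by hand at 24 h, the media were renewed every 24 h, and the labels give a temperature of 37 °C for every group. The exposure labels name DMSO for the control only. At 32 µM the authors' test called 1 of the 38 genes, hoxc13a, which fell by 0.52 on the log2 scale, and 33 of the 38 had a negative ratio to the control. Over all features tested there, 1.83% of rows were called and 55.8% of single-gene names were negative, so the count of calls is close to the background. At 16 µM no hox gene was called, against 0.26% of rows, and 19 were negative, against 57.3% of names.

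Hox genes encode homeodomain transcription factors that give cells their position along the head-to-tail axis. They lie in clusters, and the order of the genes in a cluster, numbered as paralogue groups 1 to 13, follows the order of their expression domains from the hindbrain to the tail. Teleost fish carry duplicated clusters, so that many genes exist as an a and a b copy. In the embryo the low-numbered genes pattern the hindbrain and pharyngeal arches, the middle ones the spinal cord and trunk, and the high-numbered ones the posterior trunk, the tail and the fins. Hox proteins bind DNA together with cofactors of the Pbx and Meis families, and retinoic acid, Cdx factors and Polycomb and Trithorax proteins set where the clusters are active.

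The authors deposited 1 level per group, in FPKM (a fragment count corrected for transcript length and library total, so that genes can be set side by side), so levels and ratios carry no error between samples, and how deeply each sample was sequenced is unknown. Ratios are differences on the log2 scale, the PFBS or higher-dose group minus the other. "Fell" and "rose" are used only of genes with a deposited q-value under 0.05. The q-value is the only test result in these data, and it does not give the spread between samples. Each group stands in 2 tables, and for the 38 genes with a row in all of them the 2 control levels differed by a median of 0.01 and by at most 0.07 (hoxb1a) on the log2 scale. For the exposed groups the differences reached 0.22 for the 16 µM level (median 0.02) and 0.30 for the 32 µM level (median 0.01). Both maxima, as large as many of the ratios below, came from the same gene. Differences within 0.025 were found for 34 of the 38 genes in the control, 35 at 16 µM and 31 at 32 µM. The levels of a group in both tables come from the same 3 samples, so these differences are not a spread between samples. The whole-larva label was met by markers of 9 organs or cell types, of which 23 of 24 had a row in the table with 16 µM and none was at 0 FPKM.

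The 38 genes lay in 7 clusters (danRer7 coordinates, as the tables give them): hoxaa on chromosome 19 from 19195256 to 19254689, hoxab on chromosome 16 from 22980333 to 23013497, hoxba on chromosome 3 from 23945473 to 24062697, hoxbb on chromosome 12 from 28688639 to 28713926, hoxca on chromosome 23 from 36104487 to 36328563, hoxcb on chromosome 11 and hoxda on chromosome 9 from 1927618 to 1981110. The hoxcb genes hoxc6b, hoxc12b and hoxc13b share 1 long locus with hnrnpa1a, from 2024593 to 2229010, so their place within it is not resolved by the tables. In all, 13 of the 38 genes had a locus shared with another row. Among them were hoxb3a, hoxb4a, hoxb5a and hoxb6a at 1 locus of hoxba, and hoxc1a, hoxc6a, hoxc8a and hoxc9a at 1 of hoxca. The end given for hoxca is the end of that shared locus. Of 49 protein-coding hox symbols in the RefSeq annotation, 48 were found, 38 on their own rows and 10 on rows that pool several names; hoxc11b had no row. In both tables with the control, 3 rows pooled hoxa3a, hoxa4a, hoxa5a and hoxa9a, then hoxc3a, hoxc4a, hoxc5a and hoxc10a, then hoxd3a and hoxd4a. The table of 32 µM against 16 µM split part of these and pooled 4 names on 2 rows.

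In control larvae the middle of the series had the highest median level among genes with a row of their own. The 10 genes on pooled rows, hoxa3a, hoxc3a and hoxd3a among them, are left out of the medians and the rho below. The authors' deposited table with 16 µM gave medians of 5.10 FPKM for the 7 genes of paralogue groups 1 to 3, 11.7 FPKM for the 11 genes of groups 4 to 8 and 5.68 FPKM for the 20 genes of groups 9 to 13. No gene was at 0 FPKM, and levels ran from 1.102 FPKM (hoxb1a) to 26.0 FPKM (hoxb3a). Paralogue number and level had a Spearman rho of -0.27 over the 38 genes, a description across genes that share libraries and neighbourhoods. Within groups 9 to 13 the median level stepped down from 10.5 FPKM in group 9 (4 genes) and 9.92 in group 10 (3 genes) to 5.22 in group 11 (4 genes), 4.69 in group 12 (3 genes) and 2.44 in group 13 (6 genes).

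The hoxba cluster had the most genes on rows of their own, 11. Among such rows it held the highest gene in each of paralogue groups 2 to 9 in the authors' deposited table with 16 µM. In groups 3, 4 and 7 no other cluster had a single-gene row. Genes on pooled rows, such as hoxa5a, hoxa9a, hoxc5a and hoxc10a, could not be ranked. Its leading genes in the control were hoxb3a (26.0 FPKM), a hindbrain gene, hoxb5a (22.8 FPKM), a gene of the anterior trunk, and hoxb8a (17.8 FPKM), a trunk gene that acts in the migration of the lateral line primordium. The other leaders were in other clusters: hoxb1b (8.46 FPKM), a hindbrain gene, in group 1, then hoxa10b (10.1 FPKM), hoxa11b (7.57 FPKM), hoxc12a (14.9 FPKM) and hoxc13a (6.11 FPKM) in groups 10 to 13.

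**Figure D1:**
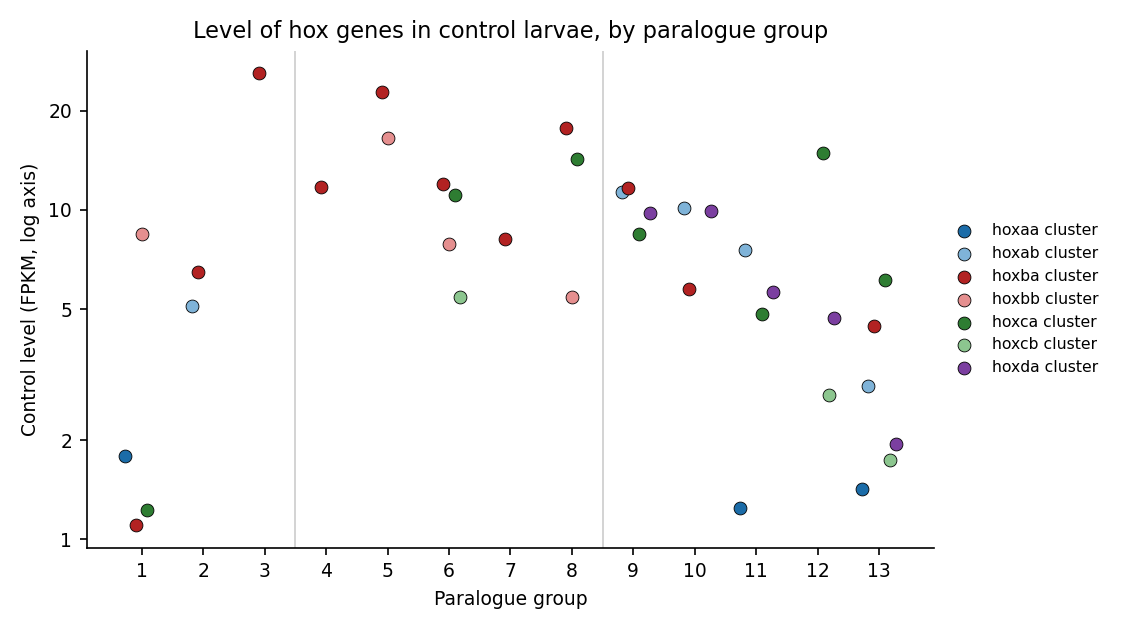
Control level in FPKM on a log axis against paralogue group for the 38 hox genes with a row of their own, coloured by cluster; vertical lines part groups 1 to 3, 4 to 8 and 9 to 13. Groups 4 to 8 sit between 5.43 and 22.8 FPKM, while groups 1 and 13 hold 6 of the 7 genes under 2 FPKM.

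The a and b copies of a gene were seldom at the same level. Of 9 pairs with a row for each copy, the a copy was the higher in 6 and the b copy in 3 in the authors' deposited table with 16 µM. The widest gap was that of the group 1 pair, with hoxb1b 7.67-fold above hoxb1a, which specifies the fourth hindbrain segment and its facial motor neurons. Next came hoxa11b (7.57 FPKM against 1.24 FPKM for hoxa11a), from a paralogue group that patterns the fins and, in mammals, the limbs, and hoxc12a (14.9 FPKM against 2.73 FPKM for hoxc12b). The narrowest was that of hoxb5a over hoxb5b, at 1.38-fold. How the counting divided reads between similar copies is not given in the sources used here, so these gaps between copies are uncertain. All 3 hoxcb genes with rows of their own were below their hoxca copies.

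The comparison of 32 µM PFBS with the control asked which hox genes the higher dose altered. Gene hoxc13a fell, from 6.15 to 4.29 FPKM (log2 ratio -0.52, q = 0.00521) in the authors' deposited table (chromosome 23, 36104487 to 36108193, danRer7). It lies at the posterior end of the hoxca cluster and is expressed in the tail and caudal fin; its mammalian counterpart is known for its role in hair and nails. The other 37 genes did not pass the test. The rate of calls over the whole table was 1.83% of 26901 rows (0.87% lower), or 2.31% of 11685 single-gene names, so that 1 call among 38 genes is close to the background.

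Below hoxc13a in the order of q stood its cluster neighbour hoxc12a, another gene of the tail and caudal fin, at 14.9 FPKM in the control and 12.1 FPKM at 32 µM (-0.30, q = 0.191) in the authors' deposited table. Then came hoxd12a, whose mammalian counterpart patterns the digits, at 4.72 and 3.71 FPKM (-0.35, q = 0.233), and hoxa9b, related to the mammalian blood stem cell gene HOXA9, at 11.4 and 9.32 FPKM (-0.30, q = 0.371). Gene hoxd13a, which takes part in fin ray formation, had 1.96 and 1.49 FPKM (-0.38, q = 0.549) in the authors' deposited table. All of these belong to paralogue groups 9 to 13 and had a lower deposited level at 32 µM, without passing the test. The largest positive ratio was at the other end of the series, where hoxb1a had 1.16 and 1.44 FPKM (0.33, q = 0.667). With recovered unadjusted p-values, which are upper bounds, 4 of the 38 genes had p under 0.05 against 11.2% of all rows, again near the background.

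**Figure D2:**
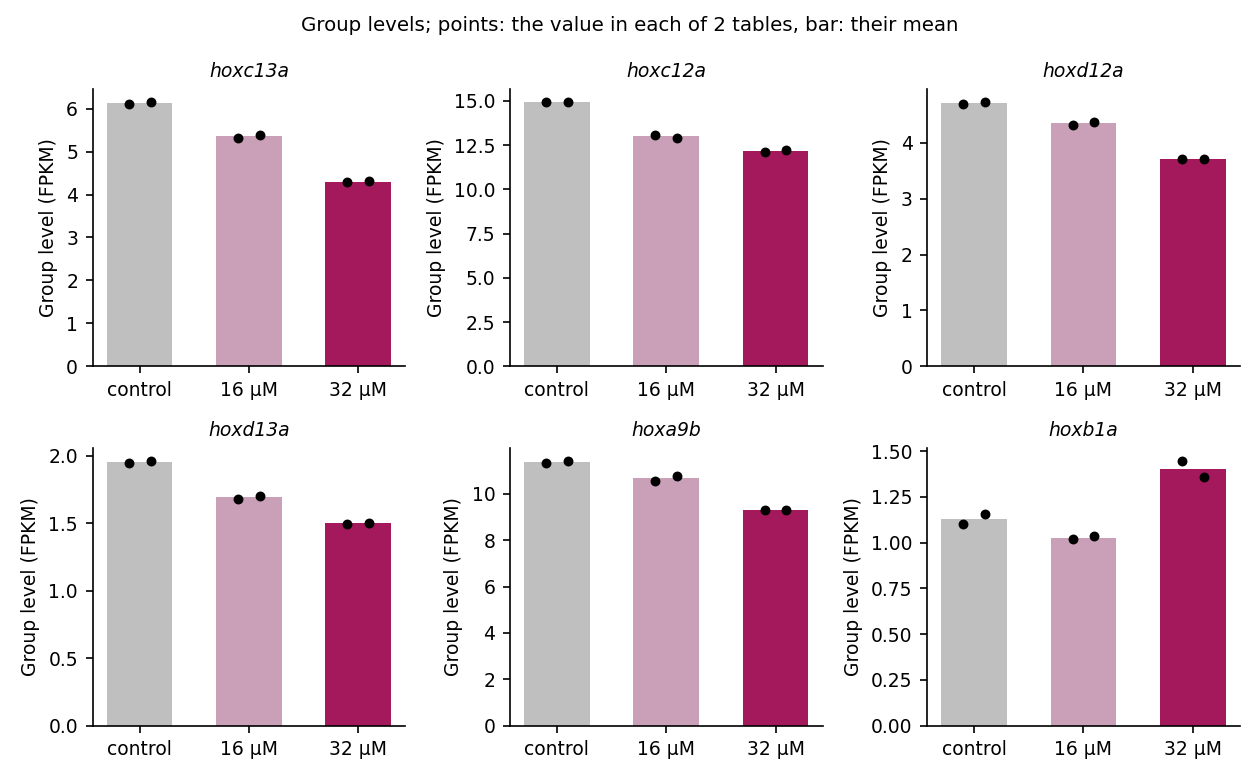
Group level in FPKM of the 6 genes with the largest ratios or smallest q at 32 µM; points are the values of the same group in the 2 tables that hold it, and bars are their mean, with no error between samples. The control level of hoxc13a is 6.11 and 6.15 FPKM, and its 32 µM level 4.29 and 4.32 FPKM.

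By position in the series, the posterior genes had the lowest median ratio at 32 µM. Of the 20 genes of paralogue groups 9 to 13, 19 had a negative ratio in the authors' deposited table, with a median of -0.12 and a range from -0.52 to 0.05. The exception was hoxb10a (0.05, q = 0.904). Of the 11 genes of groups 4 to 8, 10 were negative with a median of -0.04, from hoxb6a at -0.29 to hoxb7a at 0.09. Of the 7 genes of groups 1 to 3, 4 were negative with a median of -0.03. The Spearman rho of paralogue number with the ratio was -0.42 over 38 genes, and -0.43 over the 26 genes at 5 FPKM or more in the higher group, where 10 of 11 posterior and 13 of 15 other genes were negative. These are descriptions across genes measured in the same samples, and genes of a cluster are not independent of each other. The difference between posterior and other genes was not tested.

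For the 38 genes together the median ratio at 32 µM was -0.075, and 86.8% were negative. Over all 11685 single-gene names of the authors' deposited table the median was -0.02 and 55.8% were negative. Among the 8955 names within the range of control levels that the hox genes span, 1.16 to 26.4 FPKM, the median was -0.01 and 53.0% were negative. The members' ratios were thus small, and most of them lay on the lower side. Of the lists described below, the 30 other homeobox genes had the same median, -0.075, with 21 negative. The cofactor, upstream, and Polycomb and Trithorax lists had medians of -0.04, -0.015 and -0.015. In whole larvae, fewer cells that express a gene and less RNA per cell cannot be told apart.

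**Figure D3:**
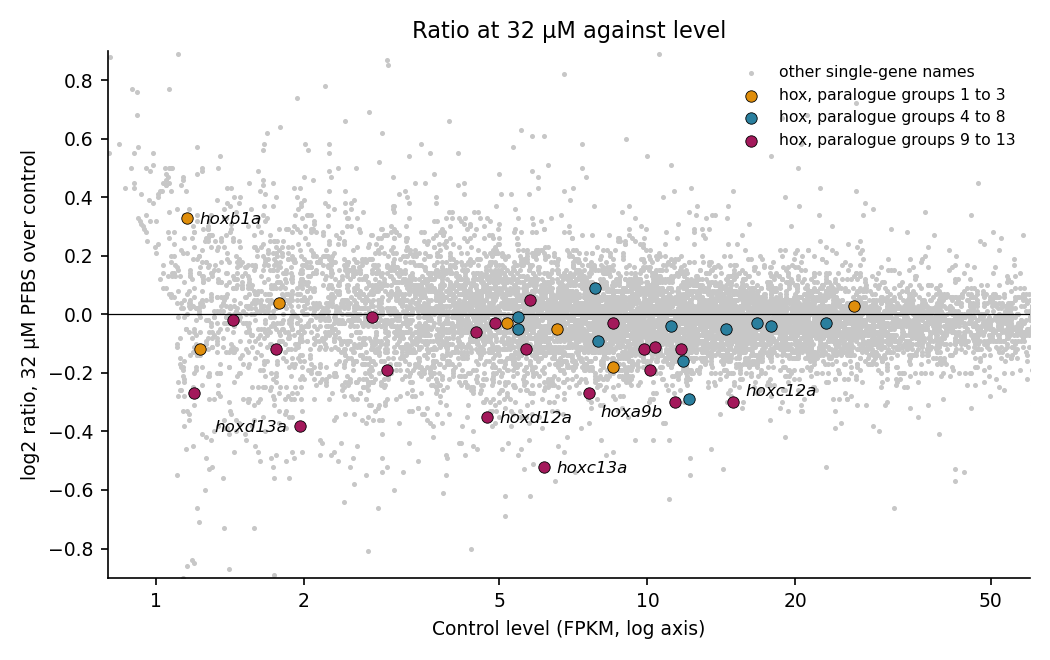
Log2 ratio of 32 µM PFBS over control against control level (FPKM, log axis); grey points are the other single-gene names within the plotted range, coloured points the 38 hox genes by position in the series. Genes of paralogue groups 9 to 13 lie at or below zero at low and high levels alike, except hoxb10a at 0.05, and hoxc13a lies lowest at -0.52.

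By cluster, every gene of hoxab (5), hoxbb (4), hoxca (7), hoxcb (3) and hoxda (5) had a negative ratio at 32 µM in the authors' deposited table. Some of these ratios were as slight as -0.01 (hoxc6b and hoxc12b). The medians were -0.19 for hoxab, -0.12 for hoxda, -0.07 for hoxbb, -0.05 for hoxca and -0.01 for hoxcb. In hoxba 7 of 11 genes were negative (median -0.04) and in hoxaa 2 of 3 (median -0.02). The a and b copies could differ: hoxc13a stood at -0.52 and hoxc13b at -0.12 (q = 0.977), and hoxc12a at -0.30 and hoxc12b at -0.01 (q = 0.998). Those of hoxa11 had the same ratio, -0.27 each. The differences between copies were not tested. The 3 pooled rows had ratios of -0.09 for hoxa3a, hoxa4a, hoxa5a and hoxa9a together (45.6 to 42.8 FPKM, q = 0.715), -0.07 for hoxc3a, hoxc4a, hoxc5a and hoxc10a (47.2 to 45.3 FPKM, q = 0.847) and -0.01 for hoxd3a and hoxd4a (22.6 to 22.5 FPKM, q = 0.986) in the authors' deposited table.

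In the comparison of 16 µM PFBS with the control, positive and negative ratios were about equally frequent. None of the 38 members passed the authors' test, by which 0.26% of the 29280 rows of their deposited table were called, and none had a recovered unadjusted p under 0.05, against 1.33% of all rows. All 38 shared a q of 0.998 with 28857 rows in total, so their order by p cannot be recovered. This tie put the upper bound of each member at 0.997, so their count under 0.05 cannot be compared with the 1.33% of all rows. Ratios were positive for 18 genes, negative for 19 and 0 for 1, with a median of -0.005 (single-gene names -0.02, with 57.3% negative). Of the 20 posterior genes 9 were negative and the median was 0.005.

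The ratios at 16 µM ran from -0.21 to 0.33. In the authors' deposited table hoxa13a, which acts in the formation of the fins, went from 1.42 to 1.78 FPKM (0.33) and hoxc1a from 1.22 to 1.42 FPKM (0.21). Both hoxc13a, at 6.11 and 5.31 FPKM, and hoxd13a, at 1.95 and 1.68 FPKM, had -0.21. None of these passed the test. Among the most strongly expressed genes, hoxb3a had -0.09, hoxb5a -0.01, hoxb8a -0.01, hoxb5b 0.06 and hoxc12a -0.19 in the same table.

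**Figure D4:**
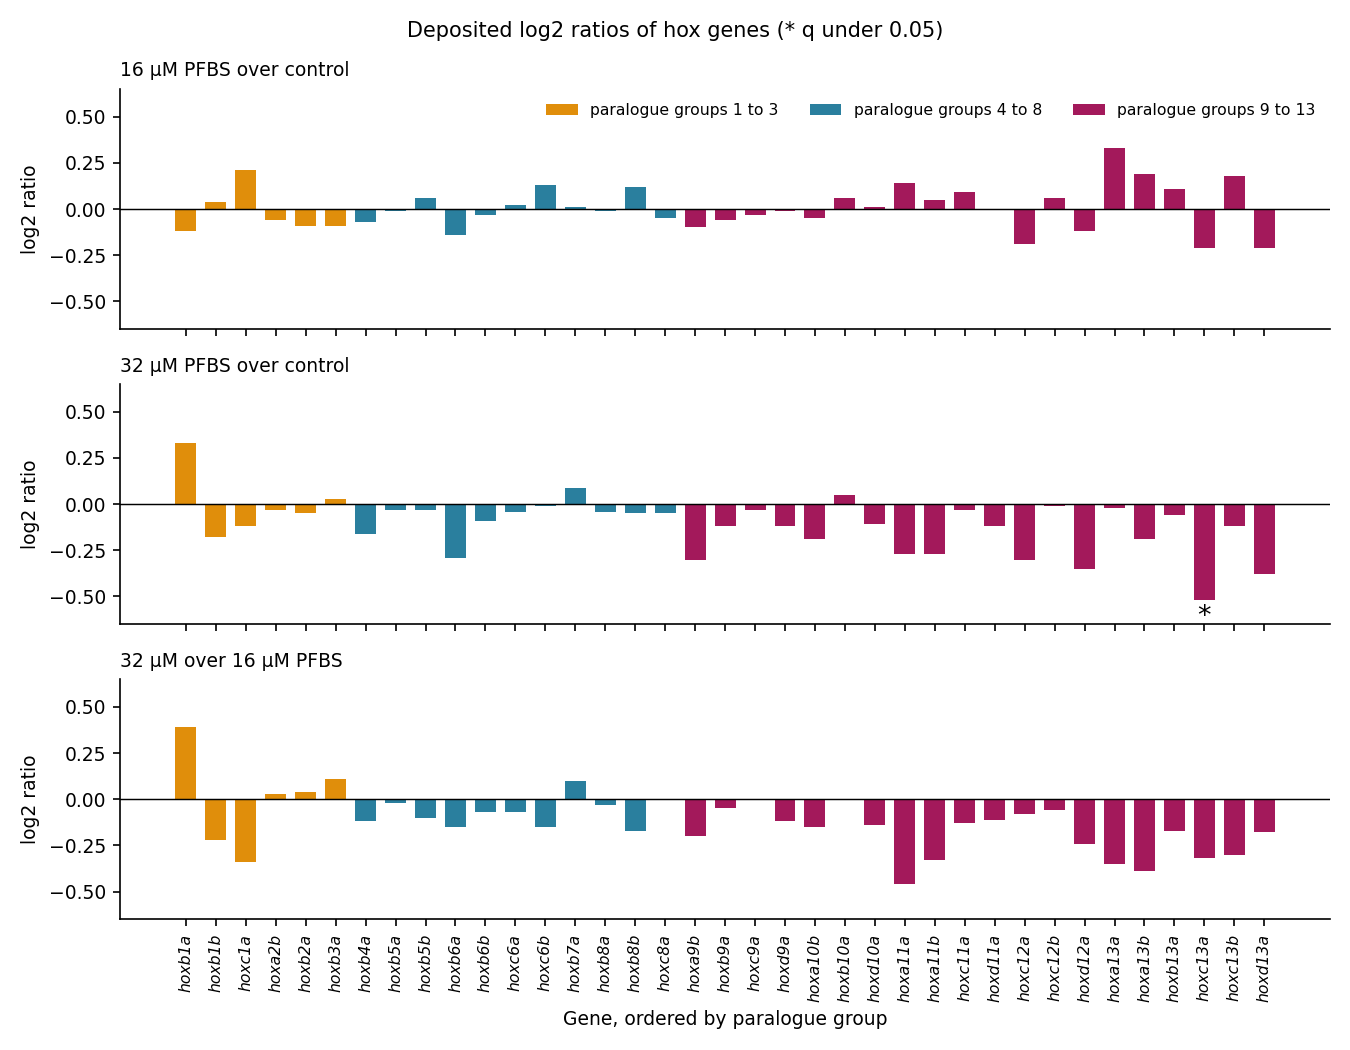
Deposited log2 ratios of 37 of the 38 hox genes with a row in every table, ordered by paralogue group, for 16 µM over control, 32 µM over control and 32 µM over 16 µM; a star marks a q-value under 0.05. The star stands on hoxc13a at 32 µM alone, and 19 of 20 bars of groups 9 to 13 point down in the middle panel against 9 of 20 in the upper one.

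The direct comparison of the doses called no hox gene in the authors' deposited table, where 0.329% of 29163 rows were called. It shares its 32 µM samples with the comparison above and its 16 µM samples with the other, so it is no independent support for either comparison. Of the 44 genes with rows there, 33 had a negative ratio, 8 a positive one and 3 a ratio of 0 (median -0.115; single-gene names 0.00, with 47.4% negative). At 5 FPKM or more in the higher group the members' median was -0.075. Of 22 posterior genes 19 were negative (median -0.145). The smallest q was that of hoxc13a, at 5.39 FPKM with 16 µM and 4.32 FPKM with 32 µM (-0.32, q = 0.930). It was the one member with a recovered unadjusted p under 0.05, against 2.52% of all rows. A tie at q = 0.999 put the upper bounds of 42 other members at 0.998, so this count cannot be compared with that share. The largest ratios were those of hoxa11a (-0.46, 1.39 to 1.01 FPKM), hoxa13b (-0.39, 3.39 to 2.58 FPKM), hoxb1a (0.39, 1.04 to 1.36 FPKM), hoxa13a (-0.35, 1.80 to 1.41 FPKM) and hoxc1a (-0.34, 1.44 to 1.14 FPKM) in the authors' deposited table, all with q = 0.999.

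The 6 genes with rows of their own in that table alone were hoxd3a (16.0 FPKM with 16 µM and 16.6 with 32 µM), hoxa5a (11.6 and 11.2), hoxc5a (11.6 and 10.5), hoxc10a (7.21 and 7.06), hoxd4a (6.11 and 6.23) and hoxa9a (4.23 and 4.26). Their ratios in the authors' deposited table lay between -0.14 (hoxc5a) and 0.05 (hoxd3a). Gene hoxd10a had 2 rows at 1 locus in 2 of the tables; the row used here, the higher one, stood at 9.92 FPKM and the other at 1.41 FPKM in the control.

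No gene taken to flank the clusters passed the test, which 1.83% of all rows did at 32 µM. With 14 such genes, the absence of calls is close to the background. The nearest row that names 1 gene, on either side of each of the 7 clusters, gave 14 genes. Rows that pool several names were passed over, so a closer gene may exist. None of the 14 was called at 32 µM. Their median ratio was -0.02, with a range from -0.13 to 0.19, in the authors' deposited table. Next to the 5′ end of hoxaa and hoxda lie the homeobox genes evx1 (0.12, q = 0.828) and evx2 (-0.13, q = 0.586). Of those on either side of hoxca, calcoco1a had 0.04 (q = 0.870) and cbx5, which encodes a heterochromatin protein, -0.04 (q = 0.845). The smallest q was that of ube2v1 (0.19, q = 0.0555), 165437 bp from the end of the long shared locus that holds the hoxcb genes. Its distance to those genes themselves is not resolved. Distances at 32 µM, taken to the ends of the cluster spans, ran from 2210 bp (ttll6 and hoxbb) to 289042 bp (nfe2l1a and hoxba). At 16 µM and between the doses, where 0.26% and 0.329% of all rows were called, none of the 14 nearest genes was called either. These were not all the same genes: before hoxba stood eve1 there and atp5g1 at 32 µM, and the gene before hoxda differed too.

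Of 12 measured genes for the Pbx, Meis and Pknox cofactors, meis2a alone fell at 32 µM, from 102.5 to 86.2 FPKM (-0.25, q = 0.0389) in the authors' deposited table, and none rose, where 1.83% of all rows were called. The members next in order of q were meis1a (-0.15, q = 0.199) and pbx4 (-0.10, q = 0.503). The median of the cofactor list was -0.04, and 10 of its 12 genes were negative. A second row named meis2a, with a lower level, was not called (-0.14, q = 0.239). At 16 µM meis2a went from 102.5 to 86.8 FPKM (-0.24, q = 0.589) and no cofactor gene was called.

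None of 22 upstream regulators of hox expression was called at 32 µM in the authors' deposited table (median -0.015), where 1.83% of all rows were called. At that share, the absence of calls in lists of 22 to 30 genes is close to the background. The smallest q-values were those of cyp26c1, which breaks down retinoic acid (-0.21, q = 0.293), and rxrbb, a retinoid X receptor gene (-0.13, q = 0.626). None of 26 Polycomb and Trithorax genes was called (median -0.015), with cbx7a at 0.30 (q = 0.252) and pcgf1 at -0.24 (q = 0.540). Of 30 other homeobox genes outside the clusters none was called, 21 were negative and the median was -0.075, with otx2, a forebrain and midbrain gene, at -0.16 (q = 0.168) and dlx4a at -0.18 (q = 0.440). At a recovered unadjusted p under 0.05 the counts at 32 µM were 2 of the 12 cofactor genes, 1 upstream regulator, 1 Polycomb or Trithorax gene and 2 other homeobox genes, against 11.2% of all rows. None of the genes of these 4 lists was called at 16 µM or between the doses, against 0.26% and 0.329% of all rows.

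**Figure D5:**
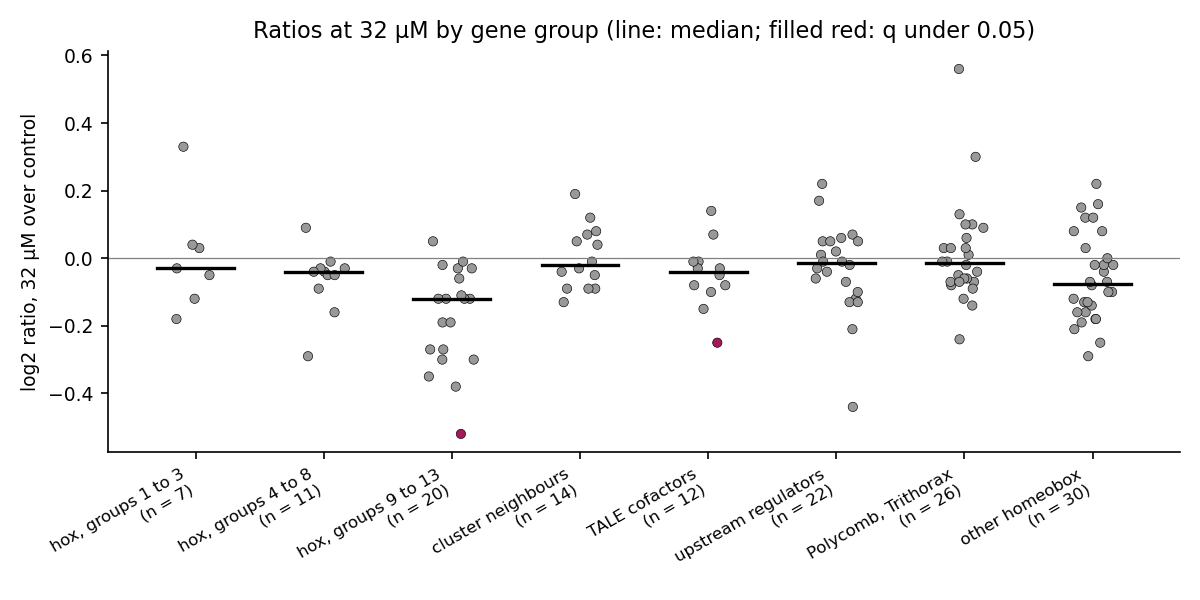
Log2 ratios of 32 µM PFBS over control for the hox genes by position in the series, the nearest gene with a row of its own on either side of each cluster, and 4 lists of related genes. Horizontal lines are medians and red points have a q-value under 0.05. The red points are hoxc13a at -0.52 and meis2a at -0.25, and evx1 and evx2 appear among both the neighbours and the other homeobox genes.

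Of 22 measured markers of organs and cell types, 3 were called at 32 µM, against 1.83% of all rows: 1 fin, 1 kidney and 1 liver gene. The actinotrichia gene and1, which encodes a fiber protein of the fin folds, fell from 294.1 to 256.0 FPKM (-0.20, q = 0.00521), while and2, a related gene, had -0.11 (q = 0.349), and the summed level of both was 701.4 FPKM in the control and 633.4 FPKM at 32 µM in the authors' deposited table. The other fin marker, tbx5a, had no row in this comparison. Between the doses it stood at 0.82 and 0.92 FPKM (0.16, q = 0.999), and at 16 µM it had -0.08 against the control (q = 0.998). The part of and1 and and2 in the lower level of hoxc13a was not tested. None of the 4 motor neuron, 3 neuron or 2 hindbrain markers was called; their summed levels in the control and at 32 µM were 68.3 and 63.9 FPKM, 311.0 and 318.5 FPKM, and 17.7 and 17.6 FPKM. In the authors' deposited table the kidney marker slc20a1a rose (0.28, q = 0.0158) and the liver marker tfa fell (-0.19, q = 0.0366), and the other markers of muscle, kidney, liver, lens and heart were not called.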

How the data were processed

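Whole zebrafish larvae were profiled by strand-specific sequencing of polyadenylated RNA, in 9 samples grouped by their exposure label, 3 per group. Cufflinks and the danRer7 build are named in the submitters' processing notes; for versions, aligner, annotation and test nothing is given in the sources used here. The authors deposited 3 tables with log2 FPKM per group, a log2 ratio and a q-value, per the file headers, and no value per sample, so depth and replicate spread are unknown and no count model could be fitted. The deposited ratio is the level of the group named last minus that of the other, within 0.011, and the deposited calls are the q-values under 0.05, both checked on every row. Where a name had several rows, the one with the highest mean level was used.

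Members and lists were chosen with earlier results of these data known. Named genes were those called, the highest in each cluster and paralogue group, the 5 largest ratios and the 3 smallest q-values per comparison, and up to 4 called and 2 other genes per list. A single hox gene is not reported here by name, but it is kept in all counts and medians. Older names were matched through RefSeq (GRCz12tu), for names only. Unadjusted p-values were recovered by undoing the Benjamini-Hochberg adjustment, on the assumption that it made the q-values; ties make them upper bounds. On simulated p-values put through that same adjustment, none was recovered below its true value beyond rounding. This checks the arithmetic and cannot test the assumption. The 3 samples of a group came from separate experiments, but the labels do not tie samples to experiments. Python 3.11.15, pandas 2.3.3 and scipy 1.17.1 were used. Alternatives were other q thresholds, level filters, pseudocounts, centring, all rows per name and pooled rows.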

Additional observations from a re-analysis of the deposited data

How the results depend on the processing

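The count of called hox genes was 0, 1 and 0 for 16 µM, 32 µM and the doses against each other, where 0.26%, 1.83% and 0.329% of all rows were called. It kept these values with q under 0.10 or 0.01, with every row, with pooled rows and at 1 FPKM or more in both groups. Shares of all rows at the other q thresholds were not computed. With recovered unadjusted p under 0.05 the count of hox genes was 4 at 32 µM, against 11.2% of all rows, which is near the background. Between the doses it was 1, which ties keep from being compared with the 2.52% of all rows. Likewise 2 cofactor, 1 upstream, 1 Polycomb or Trithorax and 2 other homeobox genes passed at 32 µM, against the same 11.2%. The median ratio at 32 µM (-0.075) was -0.057 with log2(FPKM + 1), -0.055 after centring on single-gene rows at 1 FPKM or more, -0.060 at 1 FPKM or more in both groups and -0.09 without rows that share a locus. Between the doses (-0.115) it was -0.097, -0.075 and -0.13 with log2(FPKM + 1), at 5 FPKM or more and without shared loci. At 16 µM (-0.005) it was 0.015 after centring, a change of sign in a value near 0. Control medians moved from 2.35 to 2.37 (groups 1 to 3, the other table) and from 2.505 to 2.49 (groups 9 to 13, every row) on the log2 scale. The cause of these shifts was not tested. Shifts were counted where they passed 0.0146, the spread of 1 control level between tables. That spread was 0.029 for the 16 µM level and 0.041 for the 32 µM level. A counted shift of a ratio may still lie within these. Leaving out single replicates was not possible without values per sample. No paired analysis was possible because the tables hold 1 value per group. Genes at 1 to 2 FPKM may rest on few fragments, but the depth behind them is unknown.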

Other observations

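The spans taken for the clusters also held rows that carry no hox name. Within the spans of the 7 clusters the authors' deposited tables listed 18 such rows with 16 µM, 7 with 32 µM and 14 between the doses. Of these, 8, 4 and 10 had no gene name. None was called, against 0.26%, 1.83% and 0.329% of all rows. All rows with a gene name were in hoxca or hoxcb, whose spans include long shared loci. Their place relative to the hox genes is therefore not resolved. The highest of them, apart from hnrnpa1a in the hoxcb locus (131.6 FPKM in the control, log2 ratio 0.00 at 32 µM), were in hoxaa, at up to 7.73 FPKM in the control of the table with 32 µM. Rows named LOC100535473, at the locus shared with hoxc6a, hoxc8a and hoxc9a, numbered 8 with 16 µM and 2 with 32 µM.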
